A study of Homo sapiens with 8 samples.

Results

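The genes described here are 154 expressed human genes whose exons, as listed in the deposited count table, merge to 1 unbroken block, among 56303 genes in the table. A gene was taken if its exonic length was at least 1000 bases and its counts summed to at least 1000 over the 4 input libraries. Its name also had to be a plain gene symbol. Several families were set aside by name, such as histone cluster, zinc finger (ZNF), protocadherin, SOX and JUN genes. Names of the pseudogene form, ending in P or in P and a number, were set aside too. These include protein-coding genes such as PCBP1 and UTP3. Exonic length over the 154 genes ran from 1049 to 91667 bases with a median of 2668. The summed input count ran from 1010 to 145575 with a median of 3161. The genes were thus chosen by exon structure, length, name and the counts of the same 4 input libraries that enter the comparisons below, so these values are a description only. The genes were first grouped as intronless, and the table bore this out only in part. In 109 of the 154 genes no pair of listed exons stood apart, and these are called single-exon genes below. In the other 45, listed exons did stand apart and a further listed exon bridged the gap between them, as when a table lists a spliced transcript beside one that keeps its introns. These are called bridged genes. They include genes known to be spliced, such as the ribosomal protein genes RPS15, RPL13, RPL18 and RPL23, and 24 of the 45 had 10 or more listed exons. The name single-exon refers to the deposited list only, since some of the 109 have a much longer span in RefSeq. B3GALT1 spans 581045 bases there and HNRNPA1L2 26249, where the listed lengths are 5094 and 3011. Of the 152 genes that matched a RefSeq entry, 137 were protein-coding, 8 were long noncoding RNA genes and 7 were of a pseudogene type.

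The cells were SK-N-BE(2), an established human neuroblastoma line, carrying either a control shRNA (shNC) or an shRNA against METTL14 (shMETTL14), each delivered by a lentiviral vector. MeRIP-seq was performed on 2 cultures per arm. Polyadenylated RNA was broken into short fragments, a small part was kept as the input, and the rest was pulled down with an antibody against N6-methyladenosine (m6A) to give the IP, so that there were 4 groups of 2 libraries. The labels number the cultures 1 and 2 and do not say whether the shMETTL14 cultures carried 1 shRNA or different ones, nor how separately the cultures were grown, so that p-values measure the spread between these cultures, which may be technical. METTL14, a subunit of the m6A methyltransferase, was at 51.6 and 50.9 CPM (counts scaled to the size of the library) in the shNC inputs and at 14.3 and 15.3 CPM in the shMETTL14 inputs, a log2 difference of -1.79 ± 0.07 (SE, adjusted p = 1.28e-15, edgeR), which matched the labels. Total counts per library ran from 32027379 to 47205265.

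Most human genes are split by introns, which are removed from the transcript by splicing. As exons are joined, the exon junction complex is left on the RNA just before each junction, and it is known to keep the m6A methyltransferase away from nearby RNA, which is why m6A is enriched in long internal exons and last exons. A transcript from a gene with no intron passes through none of these steps and carries no junction. Many genes without introns are retrocopies, made when an mRNA was copied back into the genome, and others encode small nuclear, signalling or stress proteins, such as the inducible HSP70 genes.

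The first comparison asked how much of each transcript was recovered with the antibody. The measure is IP over input, the CPM of a gene in the IP of a culture divided by its CPM in the input, after scaling by TMM factors. A value of 1 is that of a typical gene, so that all values are relative and do not give an absolute amount of m6A. In the shNC cultures, 104 of the 154 genes were higher in IP than in input and 25 were lower (adjusted p under 0.05, edgeR quasi-likelihood test), where 29.1% of all 22953 genes tested were higher and 29.8% were lower. In either direction 58.9% of all genes tested were called. Among the 11226 genes of any structure past the same limits on length and count, 40.3% were higher and 38.8% lower, 79.2% in all. The median log2 IP over input was 0.45 over the 154 genes, 0.0023 over genes past the same limits and -0.014 over all genes tested. The split depends on the scaling: with factors from the lowest 25% of genes it was 141 higher and 10 lower with a median of 1.36 where that of all genes was 0.90, and with library size alone 92 higher and 35 lower with a median of 0.32 where that of all genes was -0.14. IP over input was above 1 in all 4 cultures, both arms included, for 106 of the 154 genes and below 1 in all 4 for 31.

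The single-exon and the bridged genes differed in these counts. Of the 109 single-exon genes, 83 were higher in IP and 12 were lower, with a median log2 IP over input of 0.52 and quartiles of 0.19 and 0.82. Of the 45 bridged genes, 21 were higher and 13 were lower, with a median of 0.075. The bridged genes were themselves mixed. The 24 with 10 or more listed exons counted 4 higher and 11 lower with a median of -0.16, while the 21 with fewer listed exons counted 17 higher and 2 lower with a median of 0.46. The limit of 10 exons was chosen after the values were seen. The latter class holds genes long described as intronless, such as HSPA1A and H2AFX, for which the table also lists exons that stand apart. Among bridged genes the Spearman correlation of log2 IP over input with the number of listed exons was -0.57 (n = 45 genes of the same libraries). Among single-exon genes the correlation with exonic length was -0.016 and with the summed input count 0.049 (n = 109 genes each).

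Other structure classes past the same limits had medians closer to 0 than that of the single-exon genes. The 258 single-block genes set aside by name had a median log2 IP over input of 0.10, with 111 higher and 94 lower. They include histone and zinc finger genes, entries without a plain symbol such as C11orf31, and other protein-coding genes such as PCBP1. The median was 0.23 for 332 genes of 2 blocks, 0.15 for 1579 genes of 3 to 5 blocks, -0.012 for 3019 genes of 6 to 10 blocks and -0.039 for 5884 genes of more than 10 blocks. These are descriptions, and the difference between classes was not tested. Since the deposited table gives a total per gene, the position of m6A within a transcript was not measured.

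**Figure D1:**
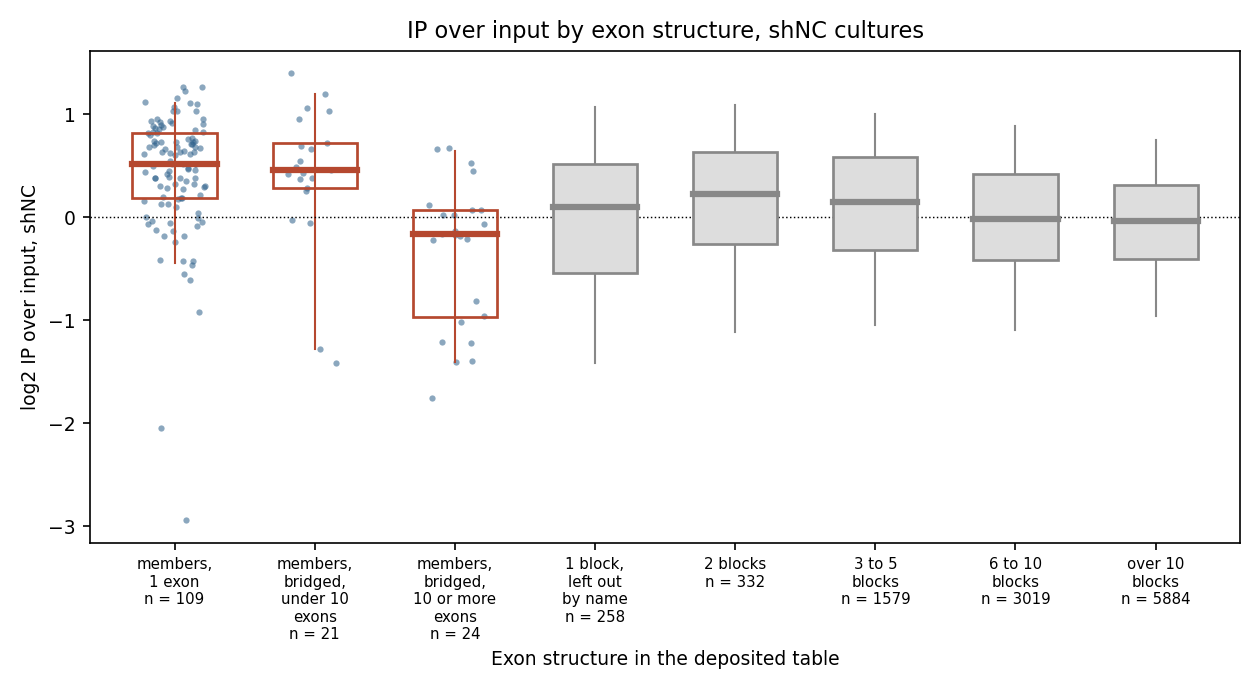
Each column is an exon structure class among genes past the limits on length and count, and the y axis is log2 IP over input in the shNC cultures. Boxes span the quartiles with a bar at the median, whiskers span the 5th to 95th percentile, and points are single genes of the 154. The medians are 0.52 for single-exon members, 0.46 and -0.16 for bridged members with fewer or more listed exons, and -0.039 for genes of over 10 blocks.

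Reads that fall on overlapping genes appear to have been counted for each of them, so overlaps bear on these values. Of the 154 genes, 83 shared no exonic base with another gene. For the 63 single-exon genes with no shared base, 47 were higher in IP and 7 were lower, with a median log2 IP over input of 0.51. For the 46 single-exon genes with shared bases, 36 were higher and 5 were lower, with a median of 0.64. At least 50% of the exonic bases were shared for 9 genes, RSC1A1, ZBED6, MGAT2, CENPBD1, NT5C, SFT2D3, ZRSR1, THRIL and ABALON, and the values of these 9 cannot be told apart from those of the genes they overlap.

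The 10 genes with the highest IP over input in shNC were NAP1L3, RSC1A1, GSPT2, NAP1L5, CHMP1B, CSTF2T, EXOC8, GSG2, USP27X and CD248. NAP1L3, a nucleosome assembly protein-like gene on the X chromosome (chrX:93670930-93673568, GRCh38, bridged), had IP over input of 2.74 and 2.58 in the shNC cultures and 2.53 and 2.47 in the shMETTL14 cultures. Its log2 IP over input in shNC was 1.40 ± 0.09 (SE, adjusted p = 5.87e-19, edgeR). Its relative NAP1L5, which is a single-exon gene inside the span of HERC3, gave 2.27 and 2.41 in shNC and 2.40 and 2.19 in shMETTL14. For both genes every culture lay above 2. The arms of NAP1L5 overlapped, and both shMETTL14 cultures of NAP1L3 lay just below its shNC cultures, with a log2 change of -0.077 (adjusted p = 0.97, edgeR).

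GSPT2, an X-linked copy of the translation termination factor gene GSPT1, had IP over input of 2.65 and 2.15 in shNC and 2.58 and 2.43 in shMETTL14. CSTF2T, which encodes a form of the polyadenylation factor CstF-64, gave 2.18 and 2.30 in shNC and 2.08 and 2.03 in shMETTL14 from a higher input level of 98.4 CPM. The spread between its cultures was small, and its log2 IP over input in shNC was 1.16 ± 0.04 (SE, adjusted p = 1.14e-28, edgeR). CHMP1B, a subunit of the ESCRT-III membrane remodelling complex, gave 2.35 and 2.23 in shNC and 2.05 and 2.36 in shMETTL14. EXOC8, a subunit of the exocyst that tethers vesicles to the plasma membrane, gave 2.17 in both shNC cultures and 2.08 and 1.95 in shMETTL14. These genes differ in function, and in none of them did a culture fall below 1.95.

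GSG2, which encodes the histone H3 kinase haspin, had IP over input of 2.13 and 2.21 in shNC and 2.09 and 2.00 in shMETTL14. USP27X, a deubiquitinase gene, gave 2.08 and 2.20 in shNC and 2.55 and 2.13 in shMETTL14 at an input level of 6.72 CPM, near the lower limit on counts. CD248, the gene of the cell surface glycoprotein endosialin, gave 2.12 and 2.08 in shNC and 2.10 and 2.07 in shMETTL14 at 170 CPM, so that its 4 cultures lay between 2.07 and 2.12. RSC1A1 gave 2.36 and 2.48 in shNC, and all of its exonic bases are shared with DDI2.

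The 10 genes with the lowest IP over input in shNC were MTRNR2L1, H3F3C, RPS15, GPX1, UQCRQ, TMEM147, ID1, H2AFZ, RPL18 and RPL13. Of these, 8 were bridged genes, and MTRNR2L1 and H3F3C were single-exon genes. RPS15, a protein of the small ribosomal subunit, had IP over input of 0.304 and 0.290 in shNC and 0.307 in both shMETTL14 cultures (log2 -1.75 ± 0.04 SE in shNC, adjusted p = 5.29e-37, edgeR). GPX1, the antioxidant selenoenzyme glutathione peroxidase 1, gave 0.387 and 0.363 in shNC and 0.409 and 0.367 in shMETTL14. UQCRQ, a subunit of respiratory complex III, gave 0.386 and 0.372 in shNC and 0.374 and 0.363 in shMETTL14. The arms of GPX1 and UQCRQ overlapped, the cultures of RPS15 lay between 0.290 and 0.307, and no culture of the 3 genes was above 0.409.

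ID1, an inhibitor of basic helix-loop-helix transcription factors, had IP over input of 0.430 and 0.393 in shNC and 0.396 and 0.479 in shMETTL14. H2AFZ, the gene of the histone variant H2A.Z, gave 0.437 and 0.423 in shNC and 0.405 and 0.441 in shMETTL14. TMEM147, an endoplasmic reticulum membrane protein, gave 0.431 and 0.335 in shNC and 0.463 and 0.452 in shMETTL14 at 9.37 CPM. RPL18 gave 0.486 and 0.380 in shNC and 0.484 and 0.532 in shMETTL14, and RPL13 stayed between 0.470 and 0.500 in the 4 cultures. RPL18 had a wider spread between its shNC cultures than RPL13 had over all 4.

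Ribosomal protein genes were among the bridged genes. RPS15, RPL18, RPL13 and RPL23 were lower in IP, with log2 IP over input from -1.75 to -0.17 in shNC. FAU, which encodes a fusion of a ubiquitin-like protein and a ribosomal protein, had -0.068 (adjusted p = 0.097, edgeR). FAU had the highest input level per kilobase of listed exon among the 154 genes, 275 CPM per kb in shNC.

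**Figure D2:**
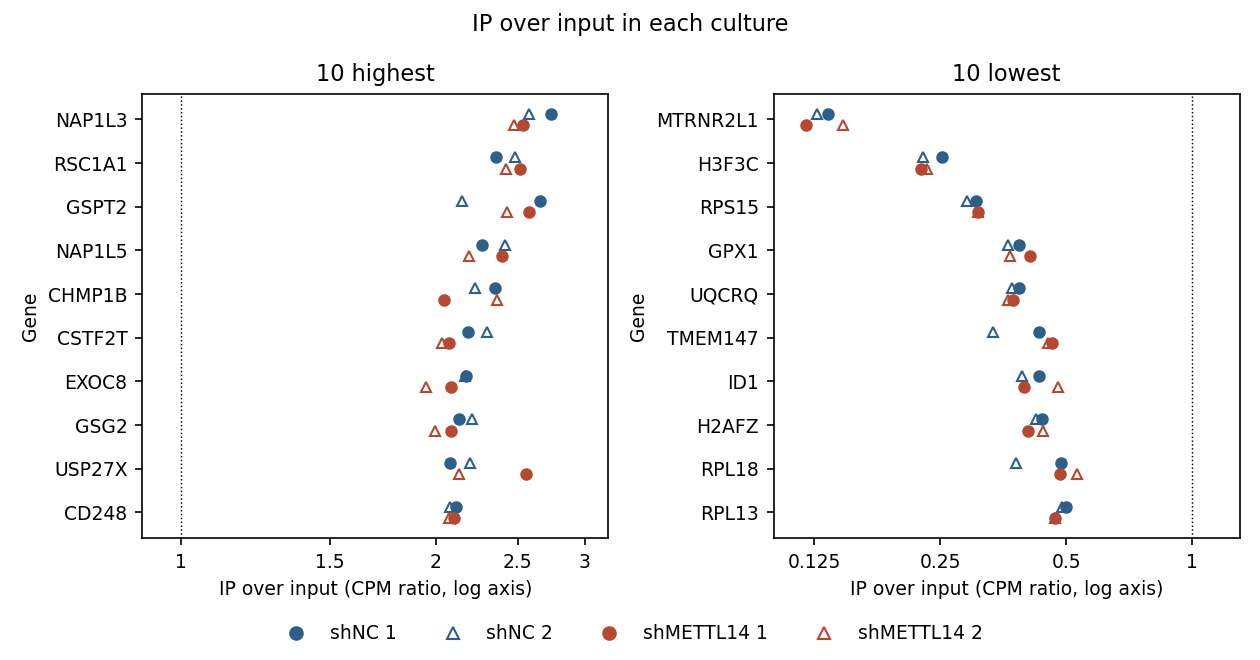
The x axis is IP over input as a ratio of CPM on a log axis, for the 10 genes with the highest (left) and the 10 with the lowest (right) values in shNC. Each gene has 4 points, blue for shNC and red for shMETTL14, with filled circles for culture 1 and open triangles for culture 2. The high genes lie between 1.95 and 2.74 and the low genes between 0.120 and 0.532, with the arms side by side.

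The 3 MTRNR2L genes, nuclear copies of mitochondrial 16S ribosomal RNA that may encode humanin-like peptides, spread over a wide range although all were called lower in IP in shNC. MTRNR2L1 (chr17:22523111-22524663) had IP over input of 0.135 and 0.127 in shNC and 0.120 and 0.147 in shMETTL14, the lowest of the 154 genes. MTRNR2L12 gave 0.557 and 0.503 in shNC and 0.465 and 0.510 in shMETTL14. MTRNR2L8 gave 0.898 and 0.947 in shNC and 0.805 and 0.963 in shMETTL14. Since reads of the mitochondrial RNA could map to these copies, their values are uncertain.

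H3F3C (chr12:31791185-31792241), a retrocopy that encodes the histone variant H3.5, had IP over input of 0.252 and 0.228 in shNC and 0.225 and 0.232 in shMETTL14. Its log2 IP over input in shNC was -2.05 ± 0.10 (SE, adjusted p = 2.44e-23, edgeR). The gene is close in sequence to H3F3B, which was at 0.546 and 0.529 in shNC, and how reads that fit both were counted is not given in the sources used here.

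The genes are described next by role, with groups that were completed after values were seen. The counts stand beside 67.5% of all 154 genes and 40.3% of the genes past the same limits that were higher in IP in shNC, most groups are small, and differences between them were not tested. All 8 genes of the MAGE, RTL8 and related families were higher in IP in shNC, from FAM127C at log2 0.31 to NSMCE3, the MAGE subunit of the SMC5/6 complex, at 1.03. Of 8 genes for ubiquitin ligase adaptors and other ubiquitin proteins, 7 were higher, with a median of 0.72, and among them were KLHL9 at 0.80, RNF26 at 0.76 and UBQLN2 at 0.66. KBTBD6, a substrate adaptor of a cullin ligase, had 0.19 (adjusted p = 0.081, edgeR). Of 7 membrane trafficking genes, 5 were higher and none lower, including HPS6, a subunit of the BLOC-2 complex, at 0.92.

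Of 25 transcription factor and chromatin genes, 19 were higher in IP and 4 were lower, with a median log2 IP over input of 0.68. The higher ones included CENPB, which binds centromeric DNA, at 0.73, HEXIM1, an inhibitor of the elongation factor P-TEFb, at 0.77, and MAB21L1, a developmental gene of the eye, at 0.93. The lower ones were H3F3C, ID1, H2AFZ and CEBPB, a leucine zipper transcription factor, at -0.42. Of 15 genes for RNA binding, RNA processing and translation, 9 were higher, such as RRS1, a ribosome assembly factor, at 0.87, and EXOSC6, a subunit of the RNA exosome, and TRMT112, an activator of methyltransferases, were lower at -0.23 and -0.18. Of 15 enzyme genes 9 were higher and 2 lower.

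Of 13 genes for receptors, transporters and other surface or membrane proteins, 9 were higher in IP, such as the Wnt receptor genes FZD7 at log2 0.62 and FZD1 at 0.29, and 2 were lower, TMEM147 and the vesicular acetylcholine transporter gene SLC18A3 at -0.61. Of 9 long noncoding RNAs, 6 were higher and 2 lower. NORAD, an abundant RNA that binds PUMILIO proteins, had 0.27, KCNQ1OT1, the imprinted antisense RNA of the KCNQ1 locus, had 0.40, and PWAR5, from the imprinted Prader-Willi region, had -0.42. The heat shock genes HSPA1A and HSPA1B had 0.66 and 0.72.

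Many single-block genes are copies or close relatives of genes with introns, and 12 such pairs were set side by side. The pairs were chosen after values were seen, leave out other such pairs and give no test. In 11 of the 12 pairs the single-block gene had the higher log2 IP over input in shNC. The widest gaps were those of USP27X, at 2.08 and 2.20, beside USP22, at 0.542 in both shNC cultures, and of the splicing factor gene SRSF8, at 1.89 and 1.87, beside SRSF2, at 0.572 and 0.569. CHMP1B lay above CHMP1A, at 0.783 and 0.759. KLHL9, at 1.77 and 1.70, lay above KLHL13, at 0.830 and 0.900. In these 4 pairs the genes were on opposite sides of 1 in both cultures.

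GSPT2 and CSTF2T also lay above GSPT1, at 1.18 and 1.27, and CSTF2, at 1.19 and 1.25, although here both genes of the pair were above 1. TMEM185B, at 1.50 and 1.37, lay above TMEM185A, at 0.755 and 0.845. For UQCRHL, a copy of the complex III hinge protein gene, the cultures at 1.72 and 1.99 overlapped those of UQCRH at 1.66 and 1.73. Likewise PABPC3, at 1.02 and 1.13, overlapped the poly(A)-binding protein gene PABPC1, at 1.02 and 1.06. In the shMETTL14 cultures the order of this pair was reversed, with PABPC3 at 1.02 and 0.985 and PABPC1 at 1.05 and 1.04. HNRNPA1L2 was at 1.08 and 1.20 beside HNRNPA1 at 0.928 and 1.03, and FBLL1 at 1.03 and 0.729 beside FBL at 0.627 and 0.675. H3F3C was the exception and lay below its relative. The closest copies share long stretches with their relatives, so that reads could have been counted for the wrong gene of a pair.

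**Figure D3:**
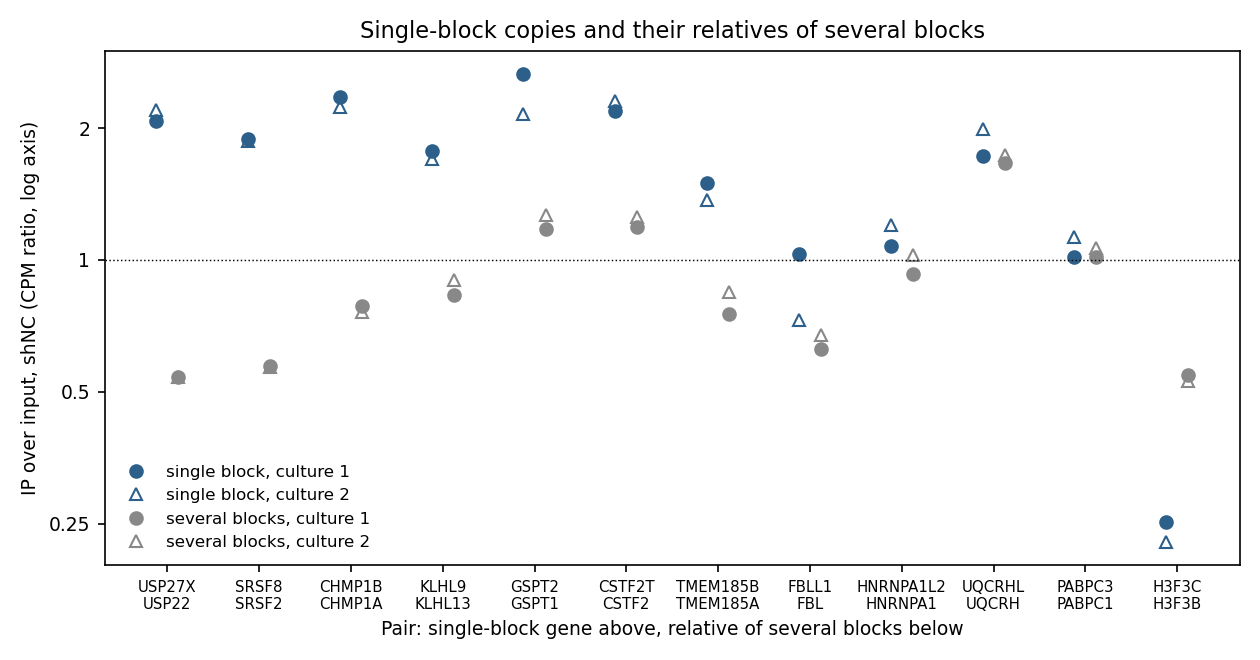
The y axis is IP over input in the shNC cultures as a ratio of CPM on a log axis, for 12 pairs of a single-block gene (blue) and a related gene of several exon blocks (grey), with 1 point for each culture. The pairs are ordered by the difference of their log2 values. The single-block gene is the higher of the pair in 11 pairs, and USP27X at 2.08 and 2.20 stands farthest above its relative, while H3F3C lies below H3F3B.

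The next question was whether IP over input differed after the METTL14 knockdown. In the shMETTL14 cultures 97 of the 154 genes were higher in IP and 30 were lower, where 28.9% of all genes tested were higher and 29.1% were lower, and 40.2% and 38.5% of those past the limits on length and count, 78.7% in all. The median log2 IP over input was 0.44 in shMETTL14. With factors from the lowest 25% of genes the split was 141 higher and 9 lower. Of the genes, 96 were called higher in both arms, 24 were called lower in both and 0 were called in opposite directions. The same counts over all genes are not given here, so no contrast with other genes is drawn from them. Between the arms, 1 of the 22953 genes tested changed in IP over input. Across the 154 genes the Spearman correlation of log2 IP over input between the arms was 0.96, and genes are not independent replicates.

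When IP over input was compared between shMETTL14 and shNC, 0 of the 154 genes passed an adjusted p of 0.05 in edgeR or DESeq2. By edgeR 1 of the 22953 genes tested did, a lower one, which is 0.00436% of them and 0.00891% of the genes past the limits on length and count. At an unadjusted p under 0.05 there were 14 genes, 3 with a higher and 11 with a lower IP over input in shMETTL14, which is 9.09% of the 154. Of all genes tested 6.34% reached this level, 3.03% higher and 3.31% lower, and of those past the same limits 7.24%, 3.45% higher and 3.79% lower. The median change was -0.019 on the log2 scale over the 154 genes and -0.0014 over all genes tested. As IP over input is scaled to the typical gene, a loss shared by all genes could not be seen here.

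The largest falls at an unadjusted p under 0.05 are given as values without a call. CDK5R2, an activator of the neuronal kinase CDK5, had IP over input of 1.24 and 1.56 in shNC and 1.09 and 1.01 in shMETTL14, a log2 change of -0.40 ± 0.15 (SE, unadjusted p = 0.011, adjusted p = 0.67, edgeR). HEIH, a long noncoding RNA, gave 1.82 and 1.80 in shNC and 1.36 and 1.47 in shMETTL14. MIEN1, which shares 24.9% of its exonic bases with ERBB2, gave 1.10 and 1.07 in shNC and 0.788 and 0.968 in shMETTL14. SRSF8 gave 1.89 and 1.87 in shNC and 1.54 and 1.65 in shMETTL14, a log2 change of -0.24 ± 0.08 (SE, adjusted p = 0.60, edgeR). In each of these genes both shMETTL14 cultures lay below both shNC cultures. The IP of SRSF8 itself was at 52.5 and 51.3 CPM in shNC and at 53.1 and 54.5 CPM in shMETTL14. Its input rose by 0.30 on the log2 scale, and the input of CDK5R2 rose too, as given below.

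There were 3 genes with a higher value at this level. KBTBD6 had IP over input of 1.13 and 1.15 in shNC and 1.52 and 1.35 in shMETTL14, a log2 change of 0.33 ± 0.14 (SE, adjusted p = 0.71, edgeR). The input of KBTBD6 fell, as given below. TMEM203, an endoplasmic reticulum membrane protein, gave 1.57 and 1.35 in shNC and 1.76 and 1.72 in shMETTL14. RPL18, given above, had a log2 change of 0.23 and its arms overlapped. Without shNC culture 1, which leaves 1 culture in that arm, RPL18 passed the adjusted threshold as higher and SNX22, a sorting nexin, as lower. SNX22 was at 1.03 and 1.08 in shNC and at 0.938 and 0.910 in shMETTL14 (unadjusted p = 0.00073, adjusted p = 0.49, edgeR). It shares 9.0% of its exonic bases with PPIB, whose summed input count was 91001 beside 59474 for SNX22. The part of PPIB reads in the values of SNX22 was not tested.

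The RNA level itself was compared in the 4 input libraries. In bulk cultures, fewer cells of a kind and less RNA per cell cannot be told apart. With shMETTL14, 27 of the 154 genes rose and 38 fell, where 11.7% of the 22245 genes tested rose and 12.3% fell, and 18.6% and 19.5% of those past the same limits on length and count. The median log2 difference was -0.015 over the 154 genes. The counts of single-exon genes were 18 that rose and 29 that fell of 109. Without shMETTL14 culture 2, 12 genes rose and 11 fell, and without shMETTL14 culture 1, 16 rose and 22 fell.

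The deepest fall was that of FRAT2, an inhibitor of the kinase GSK3 in Wnt signalling. Its input level was 11.0 and 12.3 CPM in shNC and 5.93 and 5.38 CPM in shMETTL14, a log2 difference of -1.04 ± 0.12 (SE, adjusted p = 3.34e-07, edgeR). TRIL, a membrane partner of Toll-like receptors, was at 21.6 and 22.1 CPM in shNC and at 12.6 and 13.2 CPM in shMETTL14. H3F3C was at 26.7 and 26.2 CPM in shNC and at 17.0 and 14.6 CPM in shMETTL14, a log2 difference of -0.74. Its relative H3F3B, whose reads may be counted for it, fell by 0.75 on the log2 scale (adjusted p = 1.13e-13, edgeR) from a mean of 274 CPM, and the part of such reads in the fall of H3F3C was not tested. The arms of FRAT2, TRIL and H3F3C did not overlap, and FRAT2 was the only gene of the 154 with an absolute log2 difference above 1.

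KBTBD6 was at 13.8 and 13.7 CPM in shNC and at 8.70 and 9.31 CPM in shMETTL14. TPBGL, a relative of the oncofetal antigen gene TPBG, was at 44.9 and 46.2 CPM in shNC and at 31.7 and 30.6 CPM in shMETTL14. KCTD12, an auxiliary subunit of GABA-B receptors, was at 118 CPM in both shNC cultures and at 82.5 and 81.0 CPM in shMETTL14, a log2 difference of -0.53 ± 0.04 (SE, adjusted p = 8.75e-10, edgeR). Its groups lay far apart relative to their spread. SPIN4, a relative of the histone reader spindlin, was at 21.0 and 17.2 CPM in shNC and at 13.6 and 12.5 CPM in shMETTL14, with the widest spread of these genes in shNC.

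The leucine zipper transcription factor genes CEBPD and CEBPB fell together. CEBPD was at 16.0 and 16.2 CPM in shNC and at 11.9 and 10.3 CPM in shMETTL14 (log2 difference -0.54, adjusted p = 0.00014, edgeR). CEBPB was at 93.8 and 80.9 CPM in shNC and at 61.7 and 61.3 CPM in shMETTL14 (log2 difference -0.51, adjusted p = 1.95e-07, edgeR). ID1, a target gene of BMP signalling, was at 30.9 and 31.3 CPM in shNC and at 23.1 and 23.4 CPM in shMETTL14. In all 3 the groups were separate.

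Rises were found in genes of several roles. ADRA2A, the alpha-2A adrenergic receptor that noradrenaline acts on, was at 9.53 and 9.60 CPM in shNC and at 15.3 and 14.1 CPM in shMETTL14, a log2 difference of 0.62 ± 0.10 (SE, adjusted p = 3.29e-05, edgeR). MRFAP1L1 was at 165 and 163 CPM in shNC and at 238 CPM in both shMETTL14 cultures. CDK5R2 was at 8.83 and 7.75 CPM in shNC and at 12.7 and 11.7 CPM in shMETTL14. In each of these 3 genes the groups did not overlap.

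B3GALT1, a galactosyltransferase gene, was at 6.79 and 8.01 CPM in shNC and at 12.5 and 9.63 CPM in shMETTL14. FJX1, a secreted factor related to four-jointed of the fly, was at 16.3 and 13.4 CPM in shNC and at 20.7 and 19.8 CPM in shMETTL14. ZRSR1, a relative of the minor spliceosome factor ZRSR2, was at 12.6 and 11.4 CPM in shNC and at 16.6 and 15.3 CPM in shMETTL14. Each of these 3 missed the adjusted threshold without at least 1 of the cultures (B3GALT1 and ZRSR1 without shMETTL14 culture 1, FJX1 and ZRSR1 without shMETTL14 culture 2, B3GALT1 without shNC culture 1), and 88.3% of the exonic bases of ZRSR1 are shared with another listed gene. The developmental genes MAB21L2 and MAB21L1 rose by 0.41 and 0.18 on the log2 scale.

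**Figure D4:**
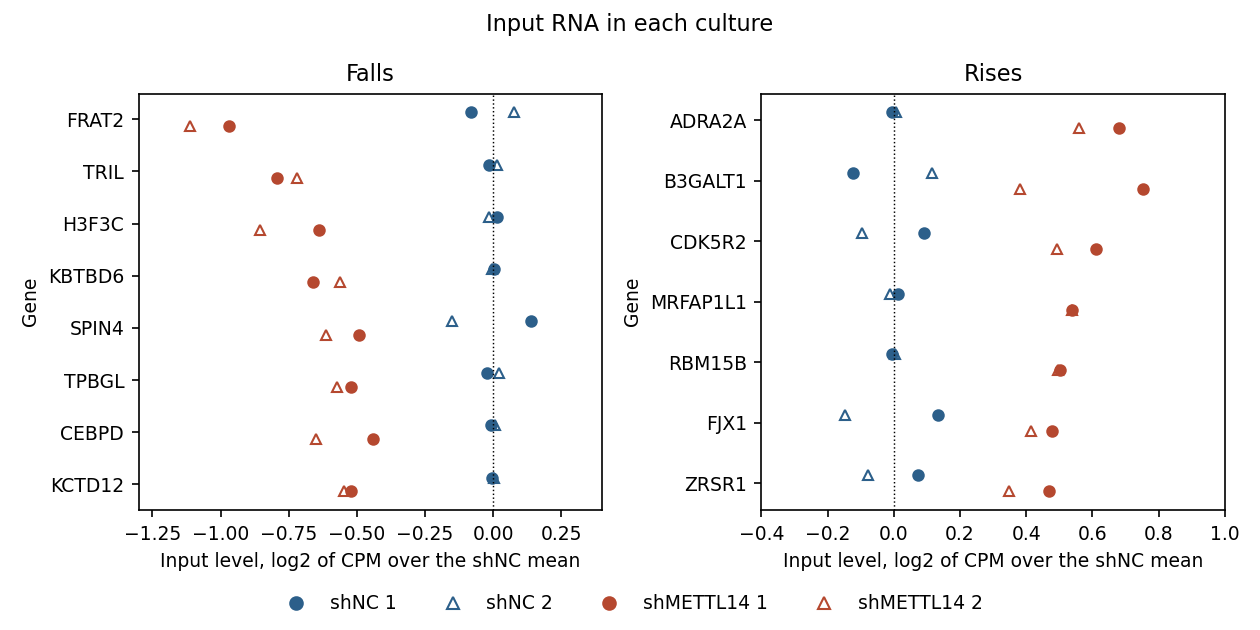
The x axis is the input level of each culture as log2 of its CPM over the mean of the shNC cultures, for the 8 largest falls (left) and 7 of the rises (right) among the 154 genes that passed the adjusted threshold. Blue points are shNC and red points shMETTL14. FRAT2 has the deepest fall, with a fitted log2 difference of -1.04, and ADRA2A rose by 0.62, and no gene shown has overlapping groups.

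Marker genes moved between the arms too. Of 8 adrenergic neuroblastoma markers, 5 rose in the shMETTL14 inputs and none fell. Those that rose were TH, by 1.03 on the log2 scale, DBH, by 0.84, ISL1, by 0.45, GATA3, by 0.28, and HAND2, by 0.14. The summed level of the 8 was 5794.5 to 6029.6 CPM in shNC and 6007.2 to 6110.2 CPM in shMETTL14. Of 9 tested markers of mesenchymal, leukocyte, epithelial and endothelial cells, 1 rose and 4 fell. The mesenchymal PRRX1 rose, from 0.26 CPM in shNC to 0.76 CPM in shMETTL14. The mesenchymal FN1, VIM and COL1A1 fell, as did CD68. The summed level of the 9 was 2274.2 to 2346.6 CPM in shNC and 1869.5 to 1875.4 CPM in shMETTL14. Of all 22245 genes tested in the inputs, 11.7% rose and 12.3% fell. Of those past the limits on length and count, 18.6% rose and 19.5% fell. In shNC, PTPRC of leukocytes, at 0.81 CPM, CDH5 of endothelium, at 0.29 CPM, and PRRX1, at 0.26 CPM, were near 0. PECAM1 had too few counts to be tested. The other leukocyte marker, CD68, was at 18.4 CPM, and the epithelial EPCAM and KRT8 were at 5.66 and 2.02 CPM. FN1 and COL1A1 were at 165 and 89.0 CPM. VIM, at 2029 CPM in shNC, made up most of the sum of the markers other than adrenergic ones. MYCN, at 4520 CPM in shNC, made up most of the adrenergic sum. It differed by -0.0085 on the log2 scale (adjusted p = 0.88, edgeR). The part of these markers in the changes of the 154 genes was not tested.

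RBM15B is the member of the 154 genes that belongs to the m6A writer complex itself, where it binds RNA and recruits the methyltransferase. It is a single-exon gene (chr3:51391268-51397908, GRCh38) of 6641 bases, and 20.0% of its exonic bases are shared with DCAF1. Its input level was 69.4 and 69.8 CPM in shNC and 98.6 and 98.1 CPM in shMETTL14, a log2 difference of 0.50 ± 0.04 (SE, adjusted p = 5.80e-09, edgeR), and it stayed between 0.49 and 0.50 when any 1 culture was left out. Its IP over input was 1.76 and 1.79 in shNC and 1.62 and 1.64 in shMETTL14, a log2 change of -0.12 ± 0.06 (SE, unadjusted p = 0.051, adjusted p = 0.79, edgeR). The cultures of each arm agreed closely for both measures.

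The other genes of the writer complex, of the exon junction complex and of mRNA export are given for comparison. Of 8 writer genes, RBM15B and KIAA1429 (VIRMA, the scaffold of the complex) rose in the inputs, at log2 differences of 0.50 and 0.25, and only the targeted METTL14 fell. RBM15, the relative of RBM15B, was at 40.2 CPM in both arms. Of 9 genes of the exon junction complex, MAGOH, ACIN1 and RBM8A rose, by 0.37, 0.19 and 0.10, and none fell, while EIF4A3, its core helicase, differed by 0.026 (adjusted p = 0.74, edgeR). Of 11 export genes, THOC1, THOC2 and THOC5 rose and THOC7, SRSF7 and SRSF3 fell, with THOC7 at -1.40. Of all genes past the limits on length and count, 18.6% rose in the inputs and 19.5% fell. In shNC, IP over input was higher in 7 of the 8 writer genes, in 6 of the 9 exon junction genes and in 4 of the 11 export genes, and lower in 0, 2 and 6 of them, where 40.3% of the genes past the limits on length and count were higher and 38.8% lower.

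Among members of shared families, the TSPYL genes of the nucleosome assembly fold rose together in the inputs. TSPYL4 was at 30.8 and 28.6 CPM in shNC and at 39.1 and 38.7 CPM in shMETTL14 (log2 difference 0.39, adjusted p = 3.96e-05, edgeR). TSPYL1 was at 97.5 and 101 CPM in shNC and at 119 and 118 CPM in shMETTL14 (log2 difference 0.25, adjusted p = 4.94e-05, edgeR). TSPYL5 was at 61.1 and 62.9 CPM in shNC and at 77.8 and 75.3 CPM in shMETTL14 (log2 difference 0.30, adjusted p = 3.08e-05, edgeR). The 3 genes and NAP1L3, which has the same fold and rose by 0.38, had groups that did not overlap, while NAP1L5 differed by 0.17 (adjusted p = 0.19, edgeR).

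TSPYL1 and TSPYL4 are neighbours on chromosome 6, with 22437 bases between them, and are read from the same strand. The 250 bases before their starts, taken from RefSeq on GRCh38.p14, are shown because both genes rose and both stretches hold the motif TCTCGCG, marked in capitals. They lie at chr6:116279931-116280180 and chr6:116254076-116254325 on the minus strand, and each sequence is written 5′ to 3′.
TSPYL1: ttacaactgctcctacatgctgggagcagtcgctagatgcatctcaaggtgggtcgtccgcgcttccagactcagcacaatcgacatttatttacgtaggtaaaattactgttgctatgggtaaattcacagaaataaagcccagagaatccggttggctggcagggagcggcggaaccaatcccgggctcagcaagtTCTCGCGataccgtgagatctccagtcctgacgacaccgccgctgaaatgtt
TSPYL4: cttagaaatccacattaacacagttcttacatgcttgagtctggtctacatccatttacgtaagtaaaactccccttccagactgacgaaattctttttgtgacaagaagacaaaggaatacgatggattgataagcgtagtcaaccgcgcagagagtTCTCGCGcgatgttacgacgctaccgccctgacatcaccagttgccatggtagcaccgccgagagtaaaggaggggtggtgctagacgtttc
The motif starts 52 bases before the start of TSPYL1 and 92 bases before that of TSPYL4, and the aligned stretches were identical in 146 of 273 columns. On either strand TCTCGCG was found in 6 of the 109 genes of the 154 with a RefSeq promoter entry, 5.50%, and in 2.96% of all 27303 promoters.

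The inducible heat shock genes HSPA1A and HSPA1B stand 9788 bases apart on chromosome 6 and are shown for the opposite reason, as a pair whose sequences are nearly alike. HSPA1B was at 219 and 231 CPM in shNC and at 224 and 223 CPM in shMETTL14, and its log2 difference was -0.010 (adjusted p = 0.89, edgeR). HSPA1A was at 154 and 153 CPM in shNC and at 141 and 142 CPM in shMETTL14, and fell by 0.12 on the log2 scale (adjusted p = 0.022, edgeR). Their IP over input was 1.56 and 1.61 for HSPA1A and 1.66 and 1.63 for HSPA1B in shNC. The stretches before their starts, at chr6:31815293-31815542 and chr6:31827488-31827737 on the plus strand (GRCh38.p14), carry in capitals the TATAAA box and each CCAAT motif on the opposite strand (ATTGG).
HSPA1A: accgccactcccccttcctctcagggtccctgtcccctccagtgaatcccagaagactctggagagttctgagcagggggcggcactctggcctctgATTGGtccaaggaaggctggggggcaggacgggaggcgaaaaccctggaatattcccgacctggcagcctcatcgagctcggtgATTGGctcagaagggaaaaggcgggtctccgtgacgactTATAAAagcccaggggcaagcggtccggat
HSPA1B: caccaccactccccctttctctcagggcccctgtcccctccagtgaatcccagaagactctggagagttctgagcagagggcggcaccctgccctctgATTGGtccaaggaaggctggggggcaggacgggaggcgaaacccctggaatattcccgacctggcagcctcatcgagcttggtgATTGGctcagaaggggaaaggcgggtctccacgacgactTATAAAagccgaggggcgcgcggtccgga
The aligned stretches were identical in 235 of 251 columns, 93.6%. The genes themselves are known to be nearly identical, so that the split of reads between HSPA1A and HSPA1B is uncertain.

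Over the 109 genes with a promoter entry, the GC box GGGCGG was found on either strand of the 250 upstream bases in 65.1%, where it was found in 42.3% of all promoters. The TATA box TATAAA was found in 11.0% against 11.1%, and CCAAT in 37.6% against 33.0%. The letters of CCAAT on the opposite strand can overlap those of GGGCGG. The median content of G and C was 64% in these genes and 58% in all promoters. A match is a run of letters and was not tested as a binding site.

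Abundant genes among the 154, measured per kilobase of listed exon, were spread over the range of IP over input. Beside FAU, the input level in shNC was 238 CPM per kb for MTRNR2L12, 202 for RPS15 and 183 for MTRNR2L8. It was 134 CPM per kb for CCDC85B, a small coiled-coil protein, 90.4 for MAB21L2, 89.3 for HSPA1B, 85.9 for CENPB and 83.3 for RPL13. Of these genes, CCDC85B, MAB21L2, HSPA1B and CENPB were higher in IP in shNC, with log2 IP over input of 0.13, 0.67, 0.72 and 0.73, while MTRNR2L12, RPS15, MTRNR2L8 and RPL13 were lower and FAU passed in neither direction.

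The limits of the rule cut through a continuous range. Just inside the length limit were MTRNR2L12, H3F3C and FAM127A at 1049, 1057 and 1181 bases, with log2 IP over input in shNC of -0.92, -2.05 and 0.49. Just outside it were MORF4, PGAM4 and SF3B5 at 971, 765 and 693 bases, with 0.85, -0.90 and 0.99. Just inside the count limit were GAS1, FBLL1 and USP27X at 1010, 1040 and 1050 counts, with 0.48, -0.18 and 1.10. Just outside it were ZNHIT2 and LCMT2 at 951 and 918 counts, with -0.24 and 0.52.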

How the data were processed

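MeRIP-seq of SK-N-BE(2) cells gave 8 libraries, an IP and an input of each of 2 cultures in the shNC and the shMETTL14 arm. The authors deposited raw counts per gene, without normalization. The submitters' processing notes name Trimmomatic 0.36 and GRCh38. How reads were aligned and counted, with or without strand and molecular identifiers, is not given in the sources used here, and genes that overlap on either strand appear to share reads, which raises the counts of both.

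Libraries were grouped by their titles. The members, the gene lists, the exon classes and the pairs were chosen with earlier results of these data known. Exons were merged from the positions listed in the table. Tests used edgeR 4.0.16 under R 4.3.3 (filterByExpr, TMM, glmQLFit, glmQLFTest), with Benjamini-Hochberg adjustment over all genes tested and a threshold of 0.05. A model of 4 group means over 8 libraries gave IP over input and its change, and the 4 input libraries gave the RNA change. CPM values are TMM-scaled, with a prior count of 2 for log values. Standard errors came from the F statistic. The fits were tested on simulated data. With 2 cultures per arm, no exact permutation test could go below p = 0.333, and the small number of cultures limits the precision. Replicate libraries differed by more than sampling noise (chi-square per gene from 2.38 to 4.01).

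Genes were named by rule: the 10 highest and 10 lowest in IP over input in shNC, the 8 largest rises and falls of input RNA past the threshold, the 4 largest changes of IP over input either way at an unadjusted p under 0.05, the 10 highest input levels per kb, RBM15B, and the neighbours of each limit. A few genes that the rule names are not reported here. Genes given as examples of a role, family or pair were named after values were seen. Alternatives were DESeq2 1.42.0, other scaling and filters, a replicate block, sets of members and leaving out each culture. Promoters came from the RefSeq table (GRCh38.p14) and were aligned with Biopython 1.88; 137 of the 154 genes matched RefSeq by symbol and 15 by an older symbol. Figures were drawn with matplotlib 3.10.9.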

Additional observations from a re-analysis of the deposited data

How the results depend on the processing

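The 8 counts of members called (higher and lower, in 4 comparisons) were recomputed under each alternative. The shares of all genes called under the alternatives are not given here, so these counts describe the members only. Of the values of single named genes under the alternatives, 473 kept direction and side of the threshold, 11 fell short of it, 3 came to pass it and 4 reversed. The reversals came with the IP libraries alone, which do not correct for the RNA level: CDK5R2 0.14, SRSF8 0.051, KBTBD6 -0.29 and TMEM203 -0.092. With the IP libraries alone, 24 members were called higher and 39 lower, with a median log2 difference of -0.054 over the members and 0.0010 over all genes. When TMM factors came only from the lowest 25% of genes in IP over input, this moved the median of all genes by about 0.9 on the log2 scale, to 0.90 in shNC and 0.85 in shMETTL14, with the members at 1.36 and 1.29; members called lower then numbered 10 in shNC and 9 in shMETTL14, and members called higher 141 in each. An absolute log2 value of at least 1 left 15 higher and 10 lower in shNC, 14 and 10 in shMETTL14, and 0 rises and 1 fall of input RNA. Members with no shared exonic base counted 60 higher and 10 lower in shNC, 55 and 13 in shMETTL14, and 15 rises and 19 falls of input RNA. Members with 1 listed exon counted 10 lower in shNC and 14 in shMETTL14. With no filter on low counts, 12 members rose and 15 fell in the inputs; the cause was not tested. Settings added after seeing the data were members with no pair of separate listed exons, with 12 lower in shNC and 16 in shMETTL14, members with under 50% of their bases shared, and an unadjusted p under 0.05, with 3 higher and 11 lower for the change of IP over input.

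Leaving out each culture in turn leaves a lone culture in an arm, assumed to vary like the others. Members called in shNC then ranged from 93 to 104 higher and 20 to 24 lower, in shMETTL14 from 90 to 98 and 21 to 30. The change of IP over input gave 0 to 1 in either direction. In the inputs 12 to 26 rose and 11 to 33 fell. The numbers did not pair the samples: deviations of the IP and input of a culture correlated by 0.0040 in shNC and 5.70e-05 in shMETTL14, and those of same-numbered inputs by -0.012 (22953 genes). With the replicate block the counts were 104 and 25 in shNC, 97 and 30 in shMETTL14, 0 for the change of IP over input, and 27 rises and 39 falls of input RNA.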
